A study of Saccharomyces cerevisiae with 4 samples.

Results

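Domain II of the yeast 25S rRNA was taken as the nucleotides from A649 to G1450 of the 25S sequence, counted from 1 at its 5′ end, which are 802 of the 3396 nucleotides of 25S and of the 6858 nucleotides of the 35S pre-rRNA that were analysed. The members were thus chosen by position alone, and 190 of them are uridines, the base at which 4-thiouracil cross-links are read. The strains of Saccharomyces cerevisiae that were compared by PAR-CRAC had 2 libraries each. The Dbp7-HTP strain expressed, from the genomic locus of DBP7, the RNA helicase Dbp7 with a C-terminal tag of His, a TEV protease site and Protein A, whereas the WT strain was BY4741 without any tag, so that its reads measure what the purification recovers without a tagged protein. Both strains were in the BY4741 background, were grown with 4-thiouracil and were irradiated at 365 nm. The tagged protein is Dbp7 by the titles, characteristics and series design, while the growth text of the labels names tagged Has1, Mak5 or Spb4.

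Dbp7 is a DEAD-box protein required for early steps of 60S subunit assembly in the nucleolus. In PAR-CRAC, 4-thiouracil is built into RNA in place of uracil, light joins it to proteins in contact with it, the tagged protein is purified under denaturing conditions, and the reverse transcriptase reads a cross-linked 4-thiouridine as cytidine. Domain II is one of the 5′ domains of the large subunit rRNA, which fold early in pre-60S particles; it carries the long helix known as the A-site finger and the base of the P stalk, where translation factors dock on the mature ribosome. Several C/D and H/ACA snoRNAs base pair with it and guide 2′-O-methylation and pseudouridylation.

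The sequences given here are 3 of the 6 highest maxima of Dbp7-HTP replicate 1 and the windows with the largest ratios, because many of the uridines described below lie in them. Capitals mark uridines at which at least 10% of the covering reads carried a substitution in both libraries of the strain named, and each stretch is written 5′ to 3′. The first pair is the shared maximum around C945, shown once with the Dbp7-HTP capitals and once with the WT capitals. Of the 5 uridines in capitals with Dbp7-HTP, WT shares only U942. WT replicate 2 alone also passed 10% at U922 and U935, with 25.7% and 12.1%. At U922 the groups overlapped, with 12.2% and 17.0% in the Dbp7-HTP libraries.
Dbp7-HTP, A920 to G963: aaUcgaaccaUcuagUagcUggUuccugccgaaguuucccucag
WT, A920 to G963: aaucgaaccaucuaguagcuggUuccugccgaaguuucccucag
The second pair is the 3′ end of the domain, which held the highest maximum of the domain in both Dbp7-HTP libraries and in WT replicate 2. Its capitals in Dbp7-HTP are U1405, U1430 and U1442, and in WT only U1430.
Dbp7-HTP, G1392 to G1450: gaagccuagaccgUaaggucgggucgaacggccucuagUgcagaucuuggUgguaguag
WT, G1392 to G1450: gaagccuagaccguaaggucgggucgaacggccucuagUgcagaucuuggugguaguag
The third pair joins the adjoining 50-nt windows with the largest ratios of Dbp7-HTP to WT. Most capitals are shared there, Dbp7-HTP adds U1299 and U1341, and WT adds U1267 and U1269. Beside the WT additions, A1263 to G1266 averaged only 102 and 148 RPM in the WT libraries, so WT capitals there rest on few reads.
Dbp7-HTP, A1251 to A1350: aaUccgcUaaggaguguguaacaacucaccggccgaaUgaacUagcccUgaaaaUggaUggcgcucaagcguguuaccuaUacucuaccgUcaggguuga
WT, A1251 to A1350: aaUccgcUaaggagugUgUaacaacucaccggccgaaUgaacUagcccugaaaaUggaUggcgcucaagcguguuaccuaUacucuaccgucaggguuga
The fourth pair is the third highest maximum of Dbp7-HTP replicate 1, around A837, where WT has U829, U834 and U865 of the 4 capitals of Dbp7-HTP. At the other, U821, the groups overlapped, with 12.5% and 11.1% with Dbp7-HTP, against 20.4% and 8.15% in WT.
Dbp7-HTP, A817 to G870: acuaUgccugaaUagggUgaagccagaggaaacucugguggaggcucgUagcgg
WT, A817 to G870: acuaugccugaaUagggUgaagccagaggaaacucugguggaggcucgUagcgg

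Library depth differed. The total of mapped reads was 1214217 (estimated) and 730583 in Dbp7-HTP replicates 1 and 2, against 159127 (estimated) and 467529 in WT replicates 1 and 2. Within domain II, the coverage of a nucleotide had a median of 1348 and 580 reads in the Dbp7-HTP libraries and of 59.0 and 197 reads in the WT libraries, and its lowest value was 9 reads, in WT replicate 1. The domain held 34554 and 17499 substitutions with Dbp7-HTP, against 2655 and 10251 in WT. Reads of rRNA made up more of the Dbp7-HTP libraries, at 722347 and 700544 in every 1000000 mapped reads (RPM), than of the WT libraries, at 401067 and 326221 RPM, and their part in differences given in RPM was not tested; shares of 25S coverage do not depend on it. WT replicate 2 stands apart in this domain because its single highest 25S position lies here.

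Over the whole domain, Dbp7-HTP coverage was moderate, higher than WT in RPM and lower than WT as a share of 25S. Mean coverage per nucleotide was 1195 and 935 RPM in the Dbp7-HTP libraries, against 656 and 883 RPM in the WT libraries, or 1065 ± 184 RPM with Dbp7-HTP and 770 ± 161 RPM in WT (SD, n = 2 each). The groups did not overlap, and the difference was 0.47 in log2 (RPM + 1), but with 2 libraries against 2 the exact two-sided permutation test cannot give a p below 0.333, the value obtained here. When each library was scaled to its summed 35S coverage instead of its mapped reads, the difference turned to -0.36. It was 1.25 with medians over nucleotides (1110.2 and 793 RPM with Dbp7-HTP, against 371 and 421 RPM in WT) and 1.19 without 50 nt around the highest position of each WT library.

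As a share of all 25S coverage, the domain took 13.9% and 11.2% in the Dbp7-HTP libraries and 17.8% and 35.6% in the WT libraries. Substitutions were divided in nearly the same way, with 13.2% and 10.6% of the 25S substitutions lying in the domain with Dbp7-HTP, against 17.3% and 35.7% in WT. Neither pair of groups overlapped (exact two-sided permutation test, p = 0.333, the smallest it can give). The size of this difference depended on WT replicate 2: for coverage it was -14.2 percentage points over all libraries and -5.27 points without that library, and -1.94 points when positions reaching 20% of the 25S maximum of any library were left out. The last 50 nt, from A1401 to G1450, held 11.9% and 18.3% of the domain II coverage in the Dbp7-HTP libraries, against 15.8% in WT replicate 1 and 52.3% in WT replicate 2.

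**Figure D1:**
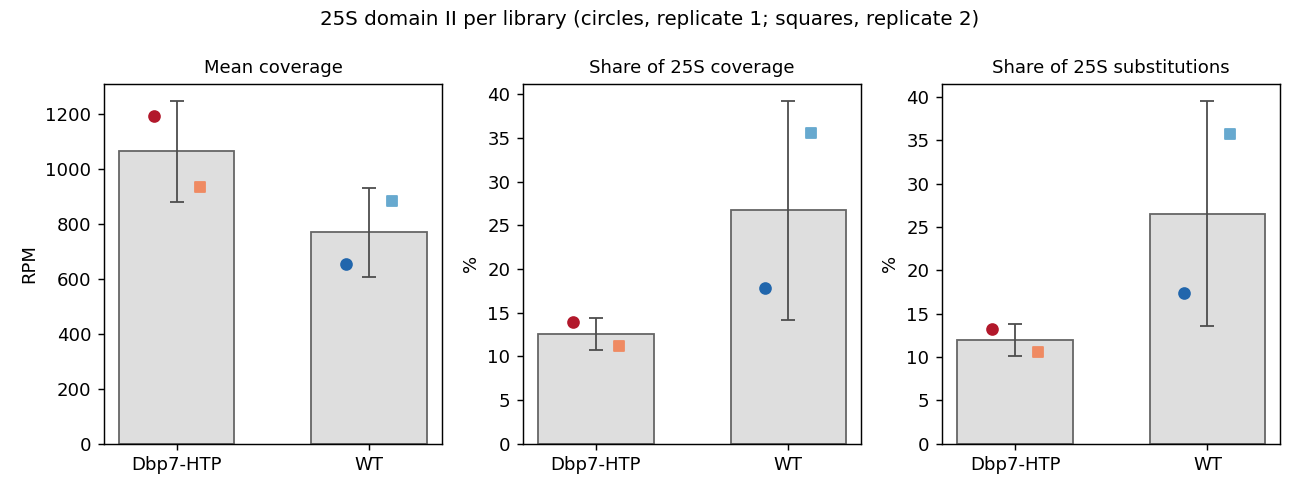
Domain II in each library, with mean coverage per nucleotide in RPM, the share of 25S coverage in percent and the share of 25S substitutions in percent on the vertical axes; bars are the means of the 2 libraries of a strain, error bars their SD, circles replicate 1 and squares replicate 2. Coverage in RPM is above both WT libraries in both Dbp7-HTP libraries, whereas both shares are lower with Dbp7-HTP, and WT replicate 2 lies far above WT replicate 1 in the shares.

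Set against its flanks, the domain stood lower than the 25S sequence downstream with Dbp7-HTP. Mean coverage in the domain was 0.422 and 0.322 times that of the 1946 nucleotides after it in the Dbp7-HTP libraries, and 0.595 and 1.51 times in the WT libraries, where the groups did not overlap (log2 difference -1.36, exact two-sided permutation p = 0.333). Relative to the 648 nucleotides before it, the domain was covered 1.80 and 2.15 times as highly with Dbp7-HTP, against 1.51 and 3.90 times in WT. These groups overlapped (exact two-sided permutation p = 1), and the log2 difference of -0.30 became 0.38 without WT replicate 2 and 0.81 with medians over nucleotides in place of means. The difference from the sequence before it was thus within the spread between replicates. Its base composition is close to that of both flanks, with 23.7% uridine in the domain, 25.2% before it and 26.5% after it.

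Nucleotide by nucleotide, both Dbp7-HTP libraries exceeded both WT libraries in RPM at 628 of the 802 positions (78.3%), against 68.5% of all 25S positions, and at no position were both below both WT libraries, against 0.589% for 25S. The longest run of such positions reached from G1152 to G1389 over 238 nt, with a mean of 1226 and 970 RPM in the Dbp7-HTP libraries and 333 and 322 RPM in the WT libraries. A further run of 73 nt from G809 to C881 averaged 1522 and 1015 RPM with Dbp7-HTP, against 292 and 426 RPM in WT. As a share of 25S coverage the picture was different. Only 94 positions (11.7%) were higher in both Dbp7-HTP libraries, against 22.6% over 25S, and 350 (43.6%) were lower in both, against 43.0% over 25S. Of the positions with the higher share, 46 formed a single run from A1271 to C1316, whose share was 0.980% and 0.756% in the Dbp7-HTP libraries and 0.301% and 0.579% in the WT libraries. Neighbouring positions are covered by the same reads, so these runs are not independent observations.

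The profiles of the domain had a common outline and differed in the height of single maxima. In Dbp7-HTP replicate 1 the 6 highest maxima at least 50 nt apart lay at A1433 (2922 RPM), C945 (2393 RPM), A837 (2260 RPM), C1160 (2000 RPM), A1294 (1915 RPM) and A895 (1787 RPM). In Dbp7-HTP replicate 2 the highest was 3634 RPM at C1437, and A1294 was again among the first 6, at 1392 RPM. Neither Dbp7-HTP library came near its own 25S maximum in this domain, the highest value being 12.2% and 10.97% of it. In WT replicate 1 the highest maximum was 4732 RPM at C945, which was 26.9% of its highest 25S coverage, and in WT replicate 2 it was 12123 RPM at U1430, which was the highest coverage of all 25S. Across the 802 positions the Spearman coefficient between libraries was 0.93 for the Dbp7-HTP pair, 0.72 for the WT pair and 0.61 to 0.67 between strains, given as a description, since adjoining positions share reads.

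**Figure D2:**
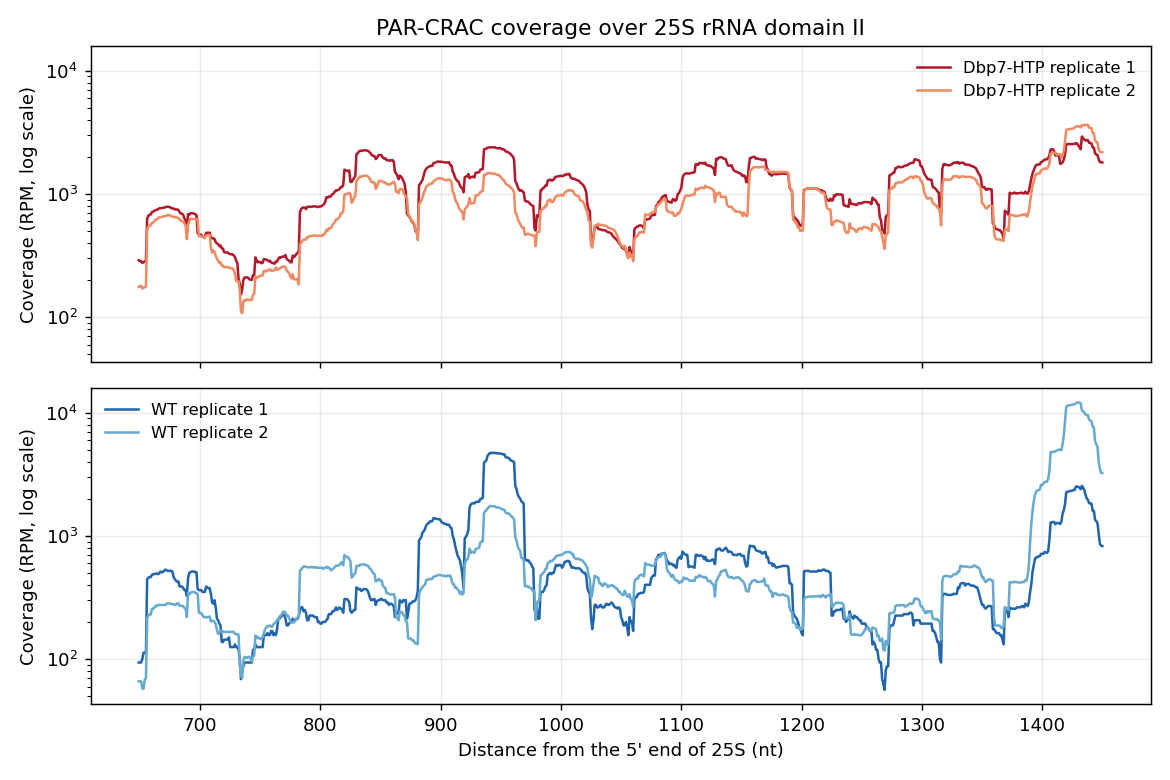
Coverage of each nucleotide of domain II in RPM on a log scale against the distance from the 5′ end of 25S in nt, with the 2 Dbp7-HTP libraries in the upper panel and the 2 WT libraries in the lower one. The Dbp7-HTP libraries run close together with several maxima of similar height, whereas the WT libraries rise above the rest of the domain around C945 and, in replicate 2, up to 12123 RPM at U1430.

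At 3 of the maxima of Dbp7-HTP replicate 1 the strains were far apart in RPM. At A1294, the Dbp7-HTP libraries had 1915 and 1392 RPM and the WT libraries 207 and 312 RPM. At A837 it was 2260 and 1406 RPM, against 371 and 584 RPM in WT. At C1160 it was 2000 and 1641 RPM, against 830 and 436 RPM in WT. The Dbp7-HTP libraries were above both WT libraries at each of these positions, with mean log2 ratios of 2.68, 1.94 and 1.59. The positions had been picked for their height in Dbp7-HTP replicate 1, which favours such a difference. Per 10000 of 25S coverage, A1294 had 2.78 and 2.08 with Dbp7-HTP, against 0.703 and 1.57 in WT. On this scale the groups overlapped at A837 (3.28 and 2.10, against 1.26 and 2.93 in WT) and at C1160 (2.90 and 2.46, against 2.81 and 2.19 in WT). At the remaining maxima the WT libraries disagreed with each other. A1433 had 2922 and 3604 RPM with Dbp7-HTP, against 2551 and 10440 RPM in WT. C945 had 2393 and 1460 RPM with Dbp7-HTP, against 4732 and 1741 RPM in WT. A895 had 1787 and 1283 RPM with Dbp7-HTP, against 1395 and 471 RPM in WT, so that at all 3 the groups overlapped. The third maximum of WT replicate 2, A1006, had 1446 and 1062 RPM with Dbp7-HTP, against 628 and 742 RPM in WT, and the third of WT replicate 1, G894, adjoins A895.

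Coverage was also compared in 50-nt windows of the whole 35S pre-rRNA, 16 of which lie within the domain (A649 and C650 belong to a window that starts before it). In RPM, 7 of the 16 windows (43.8%) rose with Dbp7-HTP, against 23.9% of the 134 windows tested, and none fell, against 23.1% of all windows (limma with Benjamini-Hochberg adjustment at 0.05). By unadjusted p, the same number of domain II windows, 7, lay under 0.05. The median log2 ratio of the domain windows was 0.88, against 0.06 over all windows. All windows include the other rRNAs and the spacers, so these are not backgrounds of 25S alone. Over single nucleotides, the median log2 ratio was 0.97 in the domain and 1.04 over 25S, so the domain was not raised above 25S. The 7 windows form 2 blocks, the first from A801 to G900 and the second from G1101 to A1350.

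The 3 windows with the largest ratios were A1251 to G1300, A1301 to A1350 and A801 to U850. A1251 to G1300 averaged 1282 and 937 RPM with Dbp7-HTP, against 177 and 223 RPM in WT, a log2 ratio of 2.46 ± 0.44 (SE; limma adjusted p = 4.0e-04). A1301 to A1350 averaged 1522 and 1170 RPM with Dbp7-HTP, against 302 and 426 RPM in WT (log2 ratio 1.89 ± 0.43, limma adjusted p = 0.0031). A801 to U850 averaged 1560 and 958 RPM with Dbp7-HTP, against 285 and 555 RPM in WT (log2 ratio 1.62 ± 0.47, limma adjusted p = 0.012). Groups did not overlap in any of these windows. The 3 smallest ratios were -0.49 for A1401 to G1450, with 2273 and 2747 RPM against 1661 and 7404 RPM in WT, -0.12 for A951 to C1000 and -0.03 for G901 to G950, none of which passed the test. The number of raised windows was sensitive to the replicates and to the scaling. It was 1 without either Dbp7-HTP replicate 1 or Dbp7-HTP replicate 2, 8 without either WT library (with A1401 to G1450 falling without WT replicate 1, log2 ratio -1.57), and 1 when the libraries were scaled to their summed 35S coverage, which moved the median log2 ratio over all windows from 0.06 to -0.77. A1251 to G1300 passed the test under each of these settings.

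As a share of 25S coverage, no window of the domain rose, against 5.97% of all windows, and 2 of the 16 (12.5%) fell, against 47.8% of all windows (3 of the 16 had an unadjusted p under 0.05). Both lie at the shared maximum around C945. G901 to G950 made up 1.26% and 0.840% of the Dbp7-HTP signal on 25S, against 3.83% and 2.28% in WT, with a log2 ratio of -1.52 ± 0.41 (limma adjusted p = 0.028). A951 to C1000 took 0.945% and 0.592% with Dbp7-HTP, against 2.67% and 1.93% in WT, with a log2 ratio of -1.60 ± 0.38 (limma adjusted p = 0.019). The groups did not overlap in either. The median log2 ratio of the domain windows on this scale was -0.60, against -1.42 over all windows. All windows include the other rRNAs and the spacers, likewise divided by the 25S sum. Neither this median nor the 5.97% and 47.8% above is therefore a background of 25S alone. Over single nucleotides, 43.6% of the domain was lower in both Dbp7-HTP libraries, against 43.0% of 25S, so the domain was not spared within 25S. A1251 to G1300 had a ratio of 0.97 ± 0.45, which did not pass the test (limma adjusted p = 0.13). The number of windows that fell was 0 without either Dbp7-HTP library, 6 without WT replicate 1, where G901 to G950 was not among them (log2 ratio -1.15, limma adjusted p = 0.055), and 2 without WT replicate 2. Without WT replicate 2, 1 window rose, A1251 to G1300 (log2 ratio 1.42, limma adjusted p = 0.031).

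**Figure D3:**
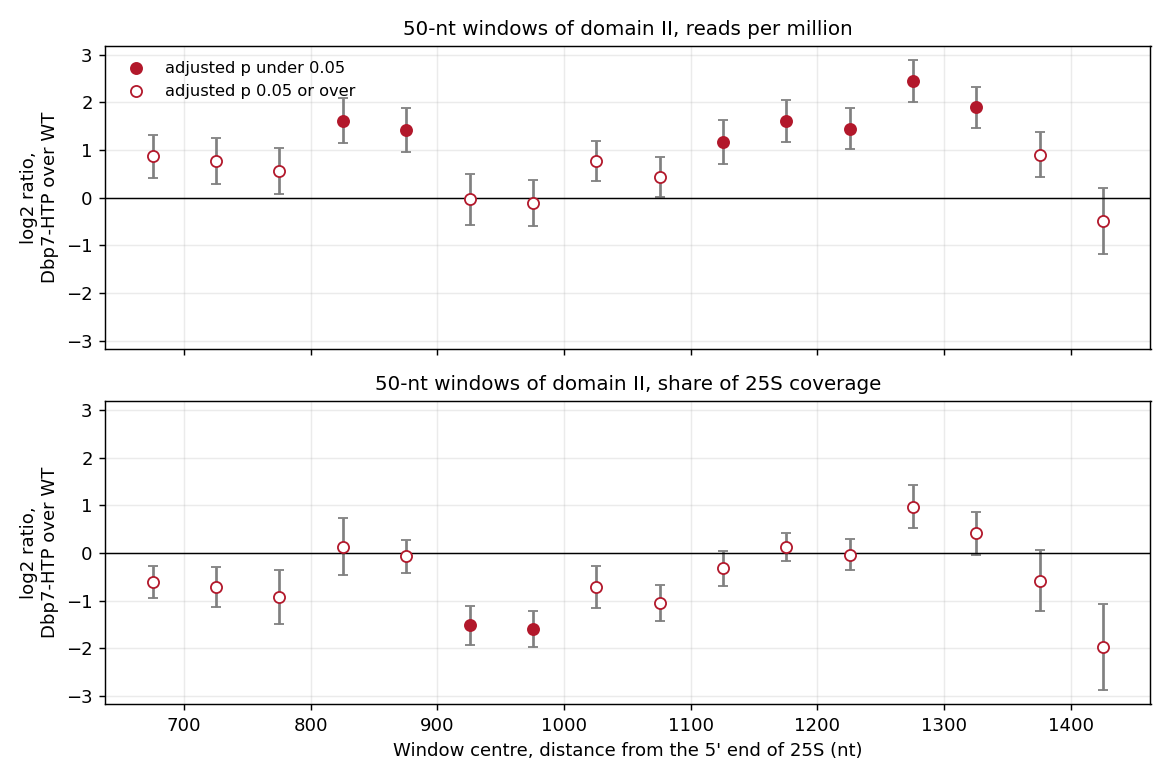
The log2 ratio of Dbp7-HTP over WT for each 50-nt window of domain II, in RPM in the upper panel and on the share of 25S coverage in the lower one, against the distance of the window centre from the 5′ end of 25S in nt; error bars are the SE of the limma fit and filled points have an adjusted p under 0.05. In RPM 7 windows pass above 0 and in the share 2 pass below 0.

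Substitutions localise contacts more finely than coverage, because a read spans many nucleotides. The reads had been kept only if they carried a T-to-C change, so the percentage of covering reads substituted at a uridine says how the changes are divided between the uridines of a fragment. Over the whole domain it was 12.8% and 13.3% with Dbp7-HTP, against 12.6% and 12.5% in WT (exact two-sided permutation p = 0.333). Every uridine had at least 1 substitution in both Dbp7-HTP libraries, whereas 11 and 4 uridines had none in the WT libraries. The WT libraries also held fewer substitutions in the domain, at 2655 and 10251, against 34554 and 17499 with Dbp7-HTP, so these zeros are no measure of contact.

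Of the 190 uridines, 189 had at least 10 substitutions over the 4 libraries and were tested. In RPM, 30 of them (15.9%) rose with Dbp7-HTP, against 12.7% of the 1499 uridines of 35S tested, and 1 (0.529%) fell, against 10.7% of all (edgeR quasi-likelihood test with Benjamini-Hochberg adjustment at 0.05). The median log2 ratio was 1.14 in the domain and 0.11 over all, where the other rRNAs and the spacers are included. The share that rose is thus close to that of 35S, while the share that fell is well under it. No background of 25S uridines alone was taken for these counts. Of the uridines that rose, 11 lie between A1251 and A1350 and 7 between A801 and G900. With 1 Dbp7-HTP library left out, whichever it was, 0 rose and 0 fell, although 15 (without replicate 1) and 28 (without replicate 2) had an unadjusted p under 0.05. Without WT replicate 1, 80 rose and 2 fell, and without WT replicate 2, 44 rose and 3 fell. DESeq2 in place of edgeR gave 25 that rose and 1 that fell.

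The uridine that fell was U942, within the shared maximum shown above. It had 316 and 300 RPM of substitutions with Dbp7-HTP, against 3771 and 960 RPM in WT, a log2 ratio of -2.94 (edgeR adjusted p = 0.027). At the same position the Dbp7-HTP libraries had a coverage of 2388 and 1467 RPM, against 4719 and 1747 RPM in WT, so that the strains differed less in coverage than in the share of reads substituted. This share was 13.2% (95% Wilson interval 12.1 to 14.5%) and 20.4% (18.1 to 22.9%) with Dbp7-HTP, against 79.9% (76.9 to 82.6%) and 55.0% (51.5 to 58.3%) in WT. Around it the order varied between uridines. Among others chosen after their values were seen, the groups overlapped at U922, U943 and U946, and the order was reversed at U932, U935 and U939. It was also reversed at U930, with 14.1% and 21.0% of reads substituted with Dbp7-HTP, against 2.66% and 1.63% in WT. The same held at U919, with 20.05% and 19.8%, against 5.0% and 7.45% in WT. Both rose in RPM, U930 with 210 and 205 RPM against 50.3 and 12.8 RPM in WT (log2 ratio 2.90, edgeR adjusted p = 0.026) and U919 with 207 and 123 RPM against 18.9 and 25.7 RPM in WT (log2 ratio 2.83, edgeR adjusted p = 0.018). Without either Dbp7-HTP library these 3 calls were lost, with adjusted p of 0.36 and 0.34 for U942 and unchanged directions.

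U1430 had the most substitutions in both Dbp7-HTP libraries and in WT replicate 2, whereas U942 had more in WT replicate 1. It is the only capital letter of the WT line at the 3′ end of the domain. U1430 had 1923 and 2961 RPM with Dbp7-HTP, against 2375 and 11813 RPM in WT, and the groups overlapped (log2 ratio -1.54, edgeR adjusted p = 0.20). Without WT replicate 1 it passed the test (log2 ratio -2.27, edgeR adjusted p = 0.0014), and without WT replicate 2 the ratio was 0.039 (edgeR adjusted p = 0.92). The covering reads carried a substitution here in 77.9% and 83.7% of cases with Dbp7-HTP, against 94.97% and 97.4% in WT. Its neighbour U1442 rose, with 675 and 757 RPM with Dbp7-HTP, against 138 and 178 RPM in WT (log2 ratio 2.17, edgeR adjusted p = 0.027). At U1442 28.2% and 24.2% of the reads were substituted with Dbp7-HTP, against 8.66% and 2.31% in WT. As at U942 and U930, the reads of a single maximum were thus divided differently between its uridines in the 2 strains. Without either Dbp7-HTP library the call of U1442 was lost (edgeR adjusted p = 0.31 and 0.30).

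The other uridines among the 6 highest with Dbp7-HTP, beside U1430 and U1442, were U1188, U834, U1288 and U865. U1188 had 1174 and 1225 RPM with Dbp7-HTP, against 434 and 257 RPM in WT, which missed the threshold (log2 ratio 1.81, edgeR adjusted p = 0.054). U1188 passed it under DESeq2 (adjusted p = 0.039), with TMM factors (edgeR adjusted p = 0.046) and at a minimum of 1 substitution (edgeR adjusted p = 0.032). It missed it at a minimum of 50 substitutions and with DESeq2 size factors (edgeR adjusted p = 0.053 in each). As a share of 25S substitutions its log2 ratio was 0.33 (edgeR adjusted p = 0.68). The substituted share of U1188 was high in all libraries, at 80.7% and 81.8% for Dbp7-HTP, against 75.8% and 78.9% for WT. With 1 library left out, the log2 ratio in RPM was 1.47 to 2.22 for U1188 and 1.16 to 2.40 for U834. U834, at A837's maximum, had 1134 and 653 RPM with Dbp7-HTP, against 170 and 400 RPM in WT (log2 ratio 1.63, edgeR adjusted p = 0.092). U865 in the same stretch rose, with 760 and 601 RPM against 113 and 64.2 RPM in WT (log2 ratio 2.97, edgeR adjusted p = 0.015). U1288, 6 nt before the maximum at A1294, rose as well, with 885 and 760 RPM with Dbp7-HTP, against 75.4 and 103 RPM in WT (log2 ratio 3.19, edgeR adjusted p = 0.011). Its reads were substituted in 51.8% and 57.6% of cases with Dbp7-HTP, against 32.4% and 37.5% in WT, where the wide intervals of WT replicate 1 (19.6 to 48.5%) reflect a coverage of 37 reads. U892, the remaining uridine among the 4 highest of WT, owed its place to WT replicate 1 alone, with 160 and 129 RPM with Dbp7-HTP, against 735 and 29.9 RPM in WT (log2 ratio -1.38, edgeR adjusted p = 0.35). Its ratio was 2.27 without WT replicate 1 and -2.34 without WT replicate 2, past the threshold in either case (edgeR adjusted p = 0.0076 and 0.0021).

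Among the uridines that rose, the 10 largest fitted ratios belonged to U1070, U850, U1210, U1288, U1299, U865, U1265, U1293, U930 and U919. U1070 had 26 and 18 substitutions with Dbp7-HTP (21.4 and 24.6 RPM) and none in WT, where it was covered by 64 and 282 reads. Against a floor of 3 counts over both WT libraries together, it was at least 4.81-fold higher with Dbp7-HTP, a bound that gives it no rank among the 10. U1299 and U1293 lie beside U1288 in the window A1251 to G1300, and had log2 ratios of 3.15 and 2.94 (edgeR adjusted p = 0.013 and 0.014). U1210 had 255 and 285 RPM with Dbp7-HTP, against 0 and 44.9 RPM in WT (log2 ratio 3.31, edgeR adjusted p = 0.031). U850 and U1265 rested on few substitutions, with 55 and 23 against 1 and 1 in WT at U850, and 48 and 24 against 0 and 3 in WT at U1265. All of these calls were lost without either Dbp7-HTP library, and those of U850 and U1070 also without WT replicate 2 (edgeR adjusted p = 0.10 and 0.063). Those of U850 and U1265 were lost under DESeq2 (adjusted p = 0.064 and 0.089), those of U1210 and U1265 with TMM factors (edgeR adjusted p = 0.065 and 0.071), and that of U1265 also with DESeq2 size factors (edgeR adjusted p = 0.059).

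**Figure D4:**
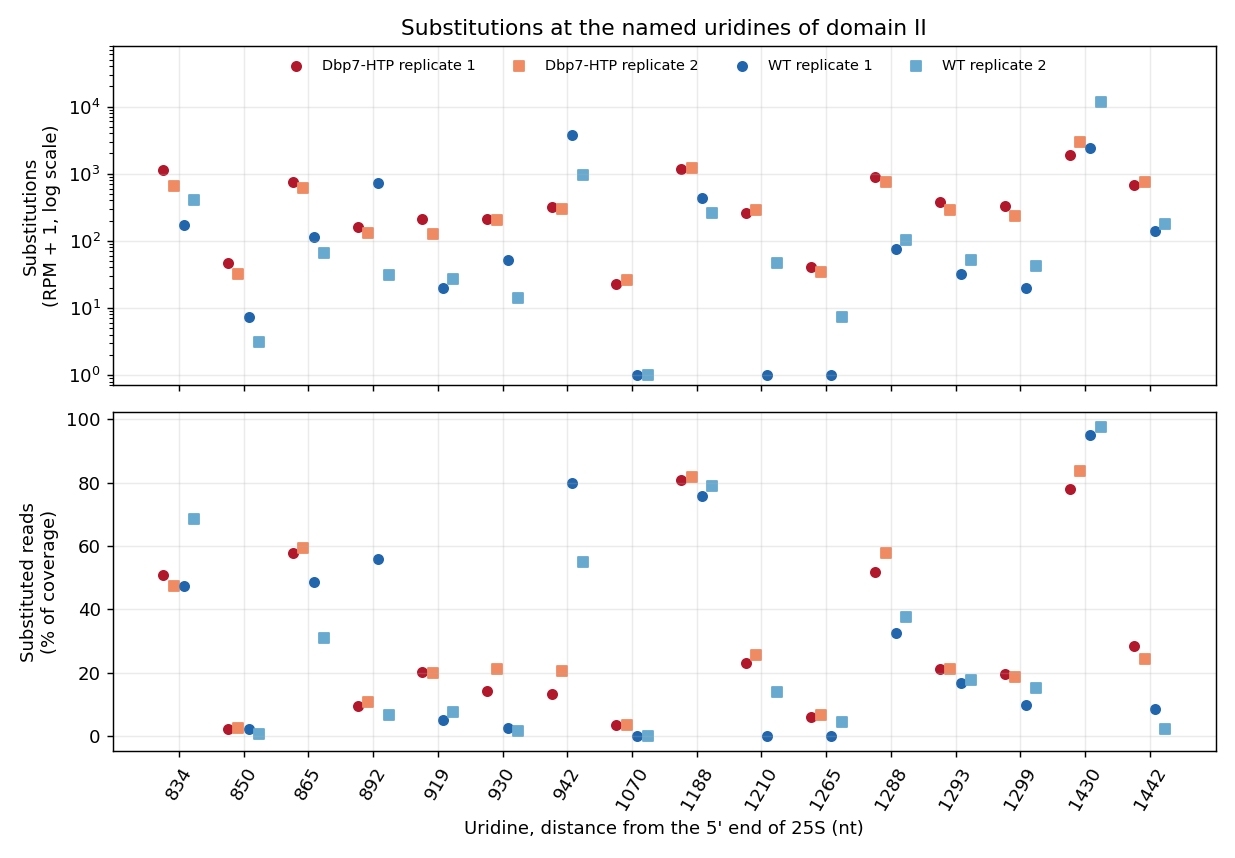
Substitutions at the 16 named uridines of domain II in each library, as RPM plus 1 on a log scale in the upper panel and as the percentage of covering reads in the lower one, against the position of the uridine in nt from the 5′ end of 25S. At U942 both WT libraries lie above both Dbp7-HTP libraries in both panels, whereas at U930 and U1442 the Dbp7-HTP libraries are above.

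As a share of all 25S substitutions, only U865 rose in the domain (0.529% of 189, against 4.14% of all uridines tested), and 15 uridines (7.94%) fell, against 39.5% of all. All uridines tested include those of the other rRNAs and the spacers, likewise set against the 25S sum. These percentages are therefore not a background of 25S alone. U865 took 35.4 and 26.6 of every 10000 substitutions of 25S with Dbp7-HTP, against 11.8 and 10.5 in WT (log2 ratio 1.48, edgeR adjusted p = 0.0496), a call that was lost under DESeq2 (adjusted p = 0.059), under both other minimums on substitutions and without either Dbp7-HTP library (edgeR adjusted p = 0.43 and 0.32). U942 fell the most, with 14.7 and 13.3 of every 10000 with Dbp7-HTP, against 392 and 157 in WT (log2 ratio -4.29, edgeR adjusted p = 0.0069). Its neighbour U943, chosen after its values were seen, fell as well (log2 ratio -2.33, edgeR adjusted p = 0.0082), with 2.80 and 2.79 of every 10000, against 13.1 and 14.99 in WT. The number that fell was 0 without either Dbp7-HTP library, 47 without WT replicate 1 and 14 without WT replicate 2.

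The percentage of reads substituted was also set side by side for the 115 uridines of the domain with a coverage of at least 50 in every library, a comparison chosen after values had been seen and given with no test. It was higher in both Dbp7-HTP libraries at 44 uridines (38.3%), against 33.7% of the 520 such uridines of 25S, and lower in both at 18 (15.7%), against 27.3% of 25S. The differences were mostly small. The largest after U942 was at U1220, where 22.2% and 24.2% of the reads were substituted with Dbp7-HTP, against 78.3% and 39.2% in WT, and the coverage was 1165 and 641 reads with Dbp7-HTP, against 83 and 148 in WT.

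Domain II holds many of the modified nucleotides of 25S, and 25 of them were listed with their guide snoRNAs from general knowledge of the yeast rRNA. The deposited sequence had the expected base at all 25. Coverage in RPM was higher in both Dbp7-HTP libraries at 16 of the 25 (64%), against 78.3% of the nucleotides of the domain and 68.5% of 25S, and lower in both at 0, with a median log2 ratio of 0.97, which was also the median over all 802 nucleotides of the domain. Among the 14 that carry a 2′-O-methyl group, 8 (57.1%) were higher, which is also below these shares, and the largest ratio was at G867, a target of snR50, with 1385 and 1094 RPM with Dbp7-HTP, against 295 and 242 RPM in WT. G867 was also the only listed position that was higher in both Dbp7-HTP libraries as a share of 25S, while 9 of the 25 (36%) were lower in both, against 43.6% of the domain.

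The other methylated positions followed the profile at their place in the domain. At A649 and C650, which U18 guides, the Dbp7-HTP libraries had 290 and 177 RPM (A649) and 285 and 179 RPM (C650), against 94.3 and 66.3 RPM at both positions in WT. C663 (snR58), A817 and G908 (snR60), A876 (snR72) and A1133 (snR61) were likewise above both WT libraries, with log2 ratios between 0.88 and 1.55. At G805 (snR39b), A807 (snR39 and snR59) and U898 (snR40) the groups overlapped. U898 is itself a uridine, and its substitutions rose, with 217 and 168 RPM against 50.3 and 25.7 RPM in WT (log2 ratio 2.42, edgeR adjusted p = 0.026). As a share of 25S substitutions U898 did not pass (log2 ratio 0.92, edgeR adjusted p = 0.20). The adjoining U897 and U899, chosen after their values were seen, rose in RPM too (log2 ratio 2.37 and 1.99, edgeR adjusted p = 0.026 and 0.037). The 3 targets of snR24 at the 3′ end, C1437, A1449 and G1450, overlapped between the strains, with 2735 and 3634 RPM at C1437 in the Dbp7-HTP libraries, against 2024 and 9563 RPM in the WT libraries.

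Of the 11 pseudouridines, 8 (72.7%) were covered more highly in both Dbp7-HTP libraries, a share close to that of all nucleotides of the domain, and as a share of 25S coverage 7 (63.6%) were lower in both, against 43.6% of the domain. U1124 and U986 may serve as examples, the first a target of snR5 with 1692 and 1122 RPM with Dbp7-HTP, against 628 and 434 RPM in WT, and the second a target of snR8 with 1127 and 769 RPM with Dbp7-HTP, against 364 and 509 RPM in WT. U960 (snR8), U966 (snR43) and U1056 (snR44) overlapped between the strains, U960 and U966 lying in the 3′ part of the maximum around C945. U776 (snR80), U990 (snR49), U1004 (snR5), U1042 (snR33), U1052 (snR81) and U1110 (snR82) had log2 ratios of coverage between 0.26 and 1.30. The substitutions of none of the 11 differed in RPM beyond the spread of the edgeR fit (adjusted p between 0.22 and 0.93), and as a share of 25S substitutions U1052 and U1056 fell (log2 ratios -2.66 and -2.20, edgeR adjusted p = 0.029 and 0.019). U1052 rests on 5 and 5 substitutions with Dbp7-HTP, against 2 and 5 in WT.

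Reads on the 20 guide snoRNAs of these positions come from replicate 2 of either strain alone and have no replicate check. They were higher with Dbp7-HTP for 1 of 11 C/D guides and for 6 of 9 H/ACA guides, against 30 of the 75 snoRNAs listed in both libraries (40%), but the ratio's 95% counting interval lay above 1 for only 2 guides, snR49 and snR82, and below 1 for 8. The counts by interval stand without a matching share over the 75 snoRNAs, so they do not show whether the guides differ from other snoRNAs. The values were, for example, snR49 at 84 against 19 RPM in WT, snR82 at 191 against 53 RPM in WT and snR61 at 136 against 453 RPM in WT.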

How the data were processed

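Cross-linking was measured by PAR-CRAC in 4 libraries, 2 from Dbp7-HTP and 2 from untagged WT cells, described by the study as independent experiments. P-values measure the spread between these libraries only. The authors mapped reads with Bowtie2 (version 2.2.4, per the submitters' processing notes), retained only reads bearing a T-to-C change and deposited, for each nucleotide of the 35S pre-rRNA, an unscaled coverage signal and an unscaled count of substitutions. The deposited RNA class and snoRNA values are scores, reads scaled to 1000000 mapped reads (RPM) and rounded by the authors. The rDNA annotation release is not given in the sources used here, and positions are those within the deposited sequence, in which T is written here as U. After removal of 4 spacer nucleotides that repeat a neighbouring one, 6858 nucleotides were left.

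Mapped reads were stated for the second replicates, and for the first ones estimated from the summed 35S coverage, the rRNA RPM and the coverage per rRNA read of the other library of the strain (11.1 for Dbp7-HTP, 12.2 for WT). Whole-domain values were compared by the exact two-sided permutation test, 50-nt windows averaging 10 RPM or more by limma 3.58.1 with a trend on log2 (RPM + 1) or log2 (share of 25S, on the same scale, + 1), and uridines with at least 10 substitutions by edgeR 4.0.16, with mapped reads or summed 25S substitutions as library sizes. Both were fitted over the whole 35S pre-rRNA and adjusted over all features (Benjamini-Hochberg). They were also run on simulated data with the same spread in both strains. In the real windows the SD of the replicate difference in log2 was 0.454 with Dbp7-HTP and 1.06 in WT. The simulated run therefore does not show how the fits perform on these libraries. Adjoining windows and uridines share reads. Wilson intervals at 95% cover counting error of amplified reads only. DESeq2 1.42.0 and other scalings, filters, window sizes, pseudocounts and omitted libraries were alternatives, run in R 4.3.3 and Python 3.11.15.

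Named were the 6 highest maxima of Dbp7-HTP replicate 1 and the 3 highest of each WT library at least 50 nt apart, the 3 windows with the largest and the 3 with the smallest ratios, the 6 uridines highest with Dbp7-HTP and the 4 highest in WT, the 10 called uridines with the largest ratio in each direction, and the listed modified nucleotides. The region, the lists and the tests were chosen with earlier results of these data known. The modified positions and guides come from general knowledge.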

Additional observations from a re-analysis of the deposited data

How the results depend on the processing

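With 2 libraries per strain the precision is set by their number and by the depth of WT replicate 1, whose coverage in the domain goes down to 9 reads. The values for the whole domain kept their direction under the alternatives tried, with these exceptions. Mean coverage differed by 0.47 (log2, Dbp7-HTP minus WT) and by -0.36 when scaled to summed 35S coverage. Coverage relative to the 25S before the domain differed by -0.30, by 0.81 with medians, and by -0.99 to 0.38 with 1 library left out. The other ranges with 1 library left out were 0.26 to 0.69 for mean coverage, -23.0 to -5.27 percentage points for the share of 25S coverage, -2.04 to -0.69 for coverage relative to the 25S after the domain, -23.8 to -5.41 points for the share of substitutions and 0.23 to 0.69 points for substitutions per coverage. The causes were not tested.

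Windows that rose in RPM numbered 7, with 11 of 32 windows of 25 nt, 4 windows of 100 nt, 1 with scaling to 35S coverage and 1 to 8 with 1 library left out, and 0 to 1 then fell. As a share of 25S, 2 windows of 50 nt and 1 of 100 nt fell, 0 to 6 with 1 library left out, and 0 to 1 rose. Uridines in RPM numbered 30 that rose (0 to 80 with 1 library left out) and 1 that fell (0 to 3). As a share of 25S substitutions, 1 rose, with 3 at a minimum of 1 substitution, 0 at a minimum of 50, 0 under DESeq2 and 0 to 8 with 1 library left out; 15 fell, with 0 to 47. Where a Dbp7-HTP library was left out, the lone library of that strain was assumed to vary like WT, and where a WT library was left out, the lone WT library like Dbp7-HTP. A minimum of 100 RPM could not change the domain's counts of nucleotides without overlap, because all 802 nucleotides met it.

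The replicate numbers are shared by the strains but no source says that they pair the libraries, and the deviations of same-numbered libraries correlated by 0.13 over 134 windows and by 0.43 over the 16 of the domain. With the replicate block, 6 windows rose and 0 fell in RPM, 0 rose and 2 fell in share, 30 uridines rose and 1 fell in RPM (28 and 1 of them shared with the fit without the block), and 1 rose and 10 fell in share, where all 10 were shared but the one that rose was U1210 (log2 ratio 2.08, edgeR adjusted p = 0.027) and no longer U865 (adjusted p = 0.081). U1265 lost its call in RPM (adjusted p = 0.054). The paired difference in mean coverage was 0.47, which equals the unpaired one by construction and is no check. U834 in share changed from -0.03 to 0.17 with the replicate block, and ranged from -0.67 to 1.21 with 1 library left out.

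Other named ratios that changed sign with 1 library left out were U892 (-2.34 to 2.27 in RPM, -3.53 to 0.43 in share), U1430 (-2.27 to 0.039 in RPM), and the windows G901 to G950 (-0.69 to 0.62 in RPM), A951 to C1000 (-0.63 to 0.40 in RPM), A1401 to G1450 (-1.57 to 0.59 in RPM), A801 to U850 (-0.63 to 0.90 in share) and A1301 to A1350 (-0.12 to 0.94 in share). The window A1251 to G1300 stayed past the threshold in RPM, at 2.23 to 2.68.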
